A study of Mus musculus with 12 samples.

Results

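Cytochrome P450 genes were examined in a list of H4K20me3 domains from mouse embryonic stem cells. The members were the RefSeq GRCm38 protein-coding genes whose symbol is Cyp followed by a number, 1 lower-case letter and a number, with a gene start at or beyond 3 Mb, and there were 92 of them among 21523 protein-coding genes on chromosomes 1 to 19 and X. By symbol, 51 belonged to the 6 subfamilies Cyp2c, Cyp2d, Cyp2j, Cyp3a, Cyp4a and Cyp4f, which form gene clusters. A further 28 were single-copy, meaning the only member of their subfamily, and 13 belonged to the other subfamilies with several members (Cyp1a, Cyp2a, Cyp2b and Cyp11b).

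The cells were of the line dTKO, with the labelled genotype Suv39h1fl/fl; Suv39h2-/-; Setdb1fl/fl, shared by all 12 samples. ChIP-seq for H4K20me3 was made 0, 12, 24 and 48 h after auxin (100 μg/ml) was added together with dTAG13 (0.5 μM), agents that make tagged proteins degrade, with 3 biological replicates per time. The study asks how the mark decays after loss of H3K9 methyltransferases, but the list analysed here holds nothing but the mm10 positions of 28210 domains. It names no sample or time, so no value below has a replicate error, a depth or a time, and the labelled cell type could not be checked against marker genes. Counts and shares therefore describe 1 list, and differences between groups of genes were not tested, since genes are not replicates.

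P450 enzymes are haem-containing monooxygenases. Families 1 to 3 are best known for oxidising drugs and other foreign compounds in liver and intestine, family 4 and Cyp2j for oxidising fatty acids and eicosanoids, and the remaining families for single steps of steroid, bile acid and vitamin metabolism. The foreign-compound and fatty acid subfamilies expanded in rodents by tandem duplication, which left runs of paralogous genes and pseudogenes. H4K20me3 is placed by SUV420H enzymes, largely at heterochromatin that carries H3K9me3 and HP1.

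Most P450 gene starts were outside domains, and the exceptions are shown first. RefSeq promoter windows (250 bases before to 50 after a start site, build GRCm38.p6) were found for 72 of the 92 members. Of these, 5 shared bases with a domain (6.94%), beside 1.59% of the 17274 protein-coding genes with a window. They were Cyp2c40 (chr19:39812765-39813064, minus strand), Cyp2c69 (chr19:39886720-39887019, minus strand), Cyp2a4 (chr7:26306942-26307241, plus strand), Cyp2t4 (chr7:27153464-27153763, plus strand) and Cyp4a29 (chr4:115241794-115242093, plus strand), each with all 300 bases inside. Cyp2c68 (chr19:39741052-39741351, minus strand) came next, 0.249 kb from a domain. The windows are printed 5′ to 3′ to show the sequence that lay in or at a domain and how alike the Cyp2c starts are. Capitals mark the motifs searched on both strands, namely TATAAA (the letters of the TATA box), AGGTCA (the half-site of many nuclear receptors) and GCGTG (the core bound by the dioxin receptor).
Cyp2c40: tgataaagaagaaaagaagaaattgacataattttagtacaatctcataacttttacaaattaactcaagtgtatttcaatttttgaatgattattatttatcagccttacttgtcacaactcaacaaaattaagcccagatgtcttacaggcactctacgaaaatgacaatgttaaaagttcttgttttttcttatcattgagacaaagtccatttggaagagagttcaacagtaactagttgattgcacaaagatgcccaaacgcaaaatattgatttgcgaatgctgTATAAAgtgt
Cyp2c69: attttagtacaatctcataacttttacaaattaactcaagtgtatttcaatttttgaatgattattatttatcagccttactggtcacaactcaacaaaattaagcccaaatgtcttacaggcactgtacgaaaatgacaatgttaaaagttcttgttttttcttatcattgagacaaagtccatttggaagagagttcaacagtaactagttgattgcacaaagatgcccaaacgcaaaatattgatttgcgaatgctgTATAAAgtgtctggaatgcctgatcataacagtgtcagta
Cyp2c68: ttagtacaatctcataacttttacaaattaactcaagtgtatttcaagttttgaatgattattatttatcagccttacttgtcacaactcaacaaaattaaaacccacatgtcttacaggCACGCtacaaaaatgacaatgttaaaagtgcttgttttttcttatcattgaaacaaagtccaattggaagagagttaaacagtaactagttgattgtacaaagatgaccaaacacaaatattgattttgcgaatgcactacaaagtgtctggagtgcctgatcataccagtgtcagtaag
Cyp2a4: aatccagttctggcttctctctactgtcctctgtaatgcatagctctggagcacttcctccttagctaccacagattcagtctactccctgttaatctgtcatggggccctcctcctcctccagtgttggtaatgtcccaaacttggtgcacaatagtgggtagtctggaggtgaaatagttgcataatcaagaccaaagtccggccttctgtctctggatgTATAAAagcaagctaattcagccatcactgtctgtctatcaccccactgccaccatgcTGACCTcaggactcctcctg
Cyp2t4: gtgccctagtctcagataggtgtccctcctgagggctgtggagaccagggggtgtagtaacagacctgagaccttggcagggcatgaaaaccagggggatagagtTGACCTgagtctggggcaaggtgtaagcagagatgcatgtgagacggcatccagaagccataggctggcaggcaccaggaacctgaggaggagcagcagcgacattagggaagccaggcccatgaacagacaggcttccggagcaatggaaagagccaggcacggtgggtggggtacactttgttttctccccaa
Cyp4a29: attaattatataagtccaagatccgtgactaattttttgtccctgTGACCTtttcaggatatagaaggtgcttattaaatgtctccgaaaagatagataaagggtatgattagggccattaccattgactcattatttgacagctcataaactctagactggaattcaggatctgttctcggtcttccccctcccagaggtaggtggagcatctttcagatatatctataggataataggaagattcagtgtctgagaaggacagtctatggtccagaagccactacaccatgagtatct

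The windows of Cyp2c40 and Cyp2c69 were 98.9% identical over 270 aligned positions, and that of Cyp2c68 was 93.3% identical to Cyp2c40 over 269 positions. All 3 genes lie side by side on the minus strand and had a wide domain at or just before the 5′ end, of 19.65 kb at Cyp2c40, 24.6 kb at Cyp2c69 and 19.05 kb at Cyp2c68. Cyp2c67, the next gene beyond Cyp2c68, had a window 93.6% identical to Cyp2c40 over 219 positions. Its nearest domain before the 5′ end was 67.2 kb away and belonged to the body of Cyp2c68. The sources used here do not say how reads that match such near-identical paralogs were treated, so signal of one copy may be assigned to another.

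Windows of members held few CpG dinucleotides, with a median of 2 against 13 over all protein-coding genes. The median was 2 in the 6 clustered subfamilies and 7 in the single-copy genes. TATAAA was in 30 of 72 member windows (41.7%, beside 13.4% of all windows), AGGTCA in 19 (26.4%, beside 14.6%) and GCGTG in 14 (19.4%, beside 38.4%). In Cyp2a4 TATAAA began 28 bases before the start site, where a TATA box is usually found, but in Cyp2c40 and Cyp2c69 it began 40 and 10 bases after it. A match describes letters in the window and not a bound site.

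Domains met 32 of the 92 P450 gene bodies by at least 1 base (34.8%), beside 14.1% of all protein-coding genes. The share was 43.1% in the 6 clustered subfamilies (22 of 51), 28.6% in the single-copy genes (8 of 28) and 15.4% in the other multi-member subfamilies (2 of 13). Counted in bases, 4.95% of P450 gene bodies lay in domains, beside 1.89% for all protein-coding genes. The clustered subfamilies had 6.69% and the single-copy genes 1.89%. Coverage was partial in each of the 32 members met: 13 members had at least 10% of the body covered (beside 3.91% of all protein-coding genes), 5 had at least 20%, and none reached 50% (beside 0.739%).

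**Figure D1:**
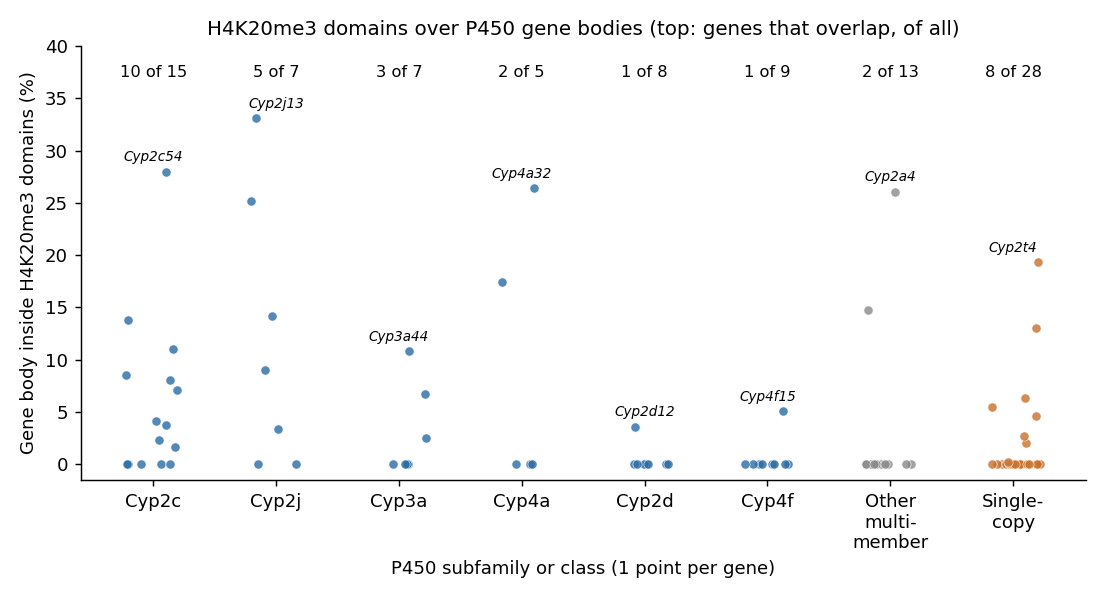
Share of each P450 gene body inside H4K20me3 domains (vertical axis, percent), with 1 point per gene for the 6 clustered subfamilies, the other multi-member subfamilies and the single-copy genes. Most points sit at 0, the highest is Cyp2j13 at 33.1%, and 8 of 28 single-copy genes lie above 0.

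Of the 22 clustered genes that met a domain, 15 were Cyp2c or Cyp2j. Without those subfamilies, 7 of 29 clustered genes met a domain (24.1%) and 2.88% of their bases were covered. The single-copy genes, at 28.6 and 1.89%, had a higher share of genes met and a lower share of bases. This alternative was chosen after the values were seen.

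Cyp2j genes encode epoxygenases of arachidonic acid and related fatty acids. They were the most covered of the subfamilies with several members, with 5 of 7 genes met and 12.9% of their bases in domains. Cyp2j13 (chromosome 4, 96042660 to 96077566) held a single domain of 11.55 kb, 33.1% of its 34.9 kb. Cyp2j11 (96294508 to 96348693) had 2 domains that covered 13.65 kb, or 25.2%. Cyp2j8 had 3 domains (14.2%), while Cyp2j5, a gene best known from kidney, had 1 (8.98%) and Cyp2j6 had 1 (3.43%). Their neighbours Cyp2j12 and Cyp2j9 had none, with the nearest domain 6.465 and 20.98 kb away. Adjacent genes of this run thus ranged from no coverage to the highest of any member.

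Cyp2c enzymes oxidise drugs, retinoids and arachidonic acid. Domains met 10 of 15 Cyp2c genes and covered 6.93% of their bases. Cyp2c54 (chromosome 19, 40037939 to 40073845) had the largest share, 28.0% from domains of 0.600 and 9.45 kb. Cyp2c55, an enzyme of the colon and liver, followed with 13.8% from 2 domains, and Cyp2c40 with 11.1%. Cyp2c67, Cyp2c69, Cyp2c66, Cyp2c29, Cyp2c68 and Cyp2c38 had 1.63 to 8.57%.

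Cyp2c39, a retinoic acid hydroxylase, had the most covered bases of any member, 18.0 kb in 6 domains. That was 8.10% of an annotated body of 222 kb (39347346 to 39569568), which also contains Cyp2c38 on the opposite strand and a pseudogene. A domain of 1.2 kb lay in both Cyp2c38 and Cyp2c39 and counts for each. The 5 Cyp2c genes without a domain were Cyp2c65, Cyp2c37, Cyp2c50, Cyp2c70 and Cyp2c23. Cyp2c70 makes muricholic acids, the rodent bile acids. Cyp2c23 stands apart from the other Cyp2c genes of chromosome 19 and was 224 kb from any domain.

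Cyp3a genes encode the main drug-oxidising enzymes of liver and gut, and 3 of 7 met a domain. Cyp3a44 had 10.8% of its body covered, Cyp3a16 6.73% and Cyp3a59 2.52%. Cyp3a11, the most studied hepatic form in mouse, had none, although the nearest domain was only 1.36 kb away, the shortest distance of the 60 members without overlap. Cyp3a25, Cyp3a57 and Cyp3a13 had none either.

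Cyp4a enzymes hydroxylate the terminal carbon of fatty acids. Cyp4a32 (chromosome 4, 115600927 to 115622507) had 2 domains that covered 26.4%. Cyp4a29 had a domain at each end of its body (17.4% in all). Cyp4a10, Cyp4a14 and Cyp4a31 had none, with the nearest domain 7.75, 3.54 and 3.635 kb away. Cyp4a10 and Cyp4a14 are classic targets of the fatty acid sensor PPARα.

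Among the 6 clustered subfamilies, Cyp2d and Cyp4f had the lowest covered shares of gene bodies. Counted from the first to the last neighbouring gene, domains took 11.2% of the Cyp2d cluster. They took 11.2% of the larger Cyp4f cluster and none of the smaller. Of 8 Cyp2d genes, which encode enzymes for basic drugs, 1 met a domain, namely Cyp2d12 with 0.158 kb at one end (3.61%). Of 9 Cyp4f genes, which include the enzymes that inactivate leukotriene B4, 1 met a domain, namely Cyp4f15 with 0.900 kb (5.08%). Covered bases were 0.381% of Cyp2d bodies and 0.478% of Cyp4f bodies, below the 1.89% of all protein-coding genes. The Cyp2d genes were short, with a median length of 4.43 kb against 40.2 kb for Cyp2c and 41.8 kb for Cyp2j. All were under 10 kb, a length at which 3.20% of all protein-coding genes met a domain.

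Single-copy genes that met a domain had 1 domain each. Cyp2t4 (chromosome 7, 27153714 to 27158564) led with 19.3%, where a domain of 1.2 kb spanned the 5′ end of a gene of 4.85 kb. Cyp4b1, a fatty acid and toxicant hydroxylase next to the Cyp4a genes, had 13.0%. These were the only single-copy genes above 10%, and both stand within 200 kb of another member. Of 20 single-copy genes with no such neighbour 6 met a domain (1.59% of bases), and of 8 with one these 2 did (3.66%). The other 6 were Cyp20a1, an orphan P450 (6.37%), Cyp27a1, a mitochondrial sterol hydroxylase of bile acid synthesis (5.45%), Cyp11a1, the side-chain cleavage enzyme that starts steroid synthesis (4.65%), Cyp4v3, a fatty acid hydroxylase (2.74%), Cyp7b1, an oxysterol hydroxylase (2.01%), and Cyp19a1, the aromatase that makes oestrogens (0.258%). In Cyp19a1 only 0.264 kb at the 3′ end of a body of 102 kb was met.

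Grouped by role, steroid and bile acid genes had a smaller covered share of bases than members in general, with 6 genes in each group. Roles were assigned by subfamily, so Cyp2c70, Cyp2c39 and Cyp2a4, described here by other functions, counted as foreign-compound genes. No gene of 6 in vitamin A and D metabolism met a domain: Cyp26a1, Cyp26b1 and Cyp26c1, which degrade retinoic acid, Cyp24a1, Cyp27b1 and Cyp2r1. Cyp26b1 was 22.5 kb long and the others were under 20 kb. Of all protein-coding genes, 3.20% of those under 10 kb, 6.18% of 10 to 20 kb and 9.90% of 20 to 30 kb met a domain. Few or none of 6 would be met at those shares. Of 6 steroid synthesis genes 2 met a domain (1.06% of bases), and of 6 bile acid and sterol genes 2 did (1.50% of bases). Among those met, Cyp19a1 and Cyp7b1 are longer than 50 kb, a length at which 38.8% of all protein-coding genes met a domain. Cyp17a1, which steroid synthesis needs for androgens, was 518 kb from any domain, the farthest of all members. Cyp7a1, the rate-limiting enzyme of bile acid synthesis, was 8.02 kb from one. Foreign-compound genes were met in 17 of 48 cases (4.99% of bases) and fatty acid genes in 10 of 25 (7.86% of bases). Steroid and vitamin genes were also short, with median lengths of 6.29 and 10.6 kb against 22.7 kb for the foreign-compound genes.

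Among the other multi-member subfamilies, Cyp2a4, a steroid hydroxylase, had 26.1% covered by a domain over its 5′ end, and Cyp2b23 had 14.7% at its 3′ end. The dioxin-inducible genes Cyp1a1 and Cyp1a2 were 133 and 153 kb from any domain. Cyp11b1 and Cyp11b2, which finish corticosteroid synthesis, and the phenobarbital-inducible Cyp2b10 also had none.

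Overlap by at least 1 base depends on gene length, so the counts were set beside those of protein-coding genes of the same length. Below 10 kb, 3 of 25 members met a domain (beside 3.20% of all), at 10 to 20 kb 2 of 19 (beside 6.18%) and at 20 to 30 kb 6 of 17 (beside 9.90%). At 30 to 50 kb 13 of 22 did (beside 15.8%), and at 50 kb or more 8 of 9 (beside 38.8%). The share of members met was thus above that of all genes in each of the 5 length classes, with few members in each. By bases this did not hold at 10 to 20 kb, where 1.14% of member bodies was covered, beside 1.35% for all genes. In the other length classes the covered share of members was the higher.

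Within length classes, clustered and single-copy genes did not keep 1 order. Each had 1 of 9 below 10 kb. At 10 to 20 kb the clustered genes had 2 of 9 and the single-copy genes 0 of 8, but at 20 to 30 kb the clustered genes had 1 of 8 and the single-copy genes 4 of 7. From 30 to 50 kb, 12 of 19 clustered genes met a domain and there was 1 single-copy gene, which did. Of 9 genes of 50 kb or more, the 6 clustered ones, all Cyp2c or Cyp2j, met a domain, as did Cyp7b1 and Cyp19a1 but not Cyp39a1. The higher share of clustered genes and their greater length (medians of 25.2 and 13.7 kb) cannot be told apart by these counts.

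**Figure D2:**
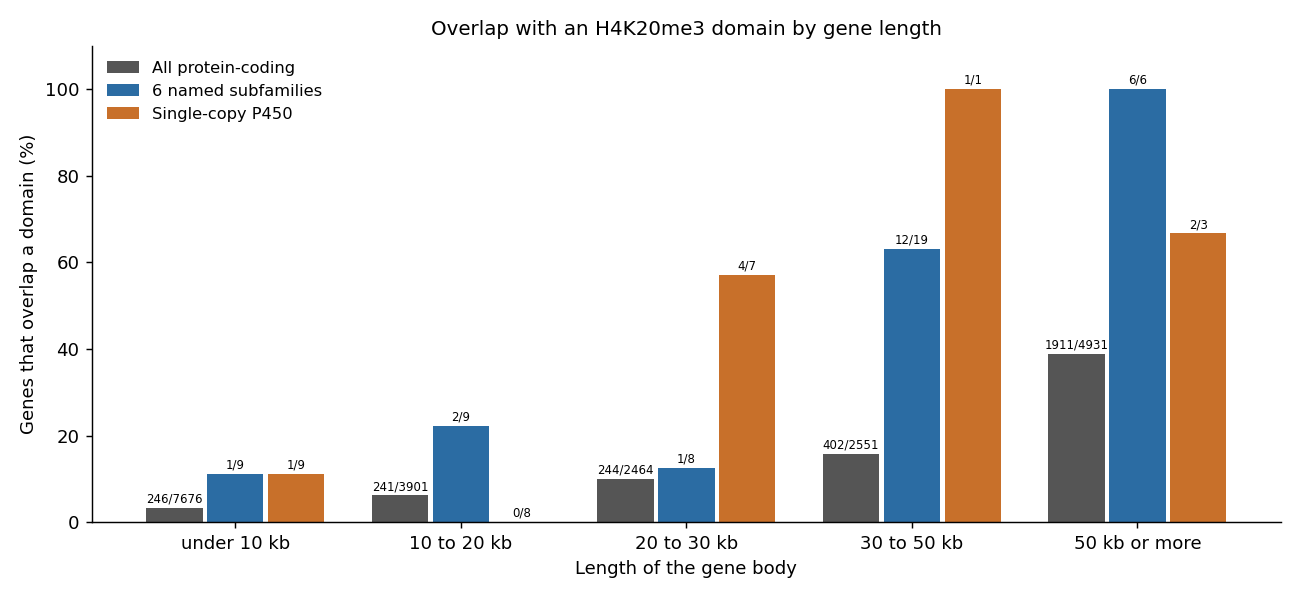
Percent of genes that overlap an H4K20me3 domain (vertical axis) by length of the gene body, for all protein-coding genes, the 6 clustered P450 subfamilies and single-copy P450 genes, with genes met over genes in the class above each bar. Bars of all protein-coding genes run from 3.20% to 38.8%, and single-copy genes stand above clustered genes at 20 to 30 kb (4 of 7 against 1 of 8).

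The clusters as stretches of chromosome were denser in domains than their genes show. Members of 1 subfamily no more than 200 kb apart formed 8 runs, which held 47 of the 51 genes and spanned 3122 kb. They contained 96 domains, of which 33 met a member and 63 lay between members. Domains took 14.7% of the runs, beside 4.57% of chromosomes 1 to 19 and X from 3 Mb on. Inside member bodies the share was 6.95%, and between members it was 21.6%. Over the whole genome the shares were 1.89% inside protein-coding gene bodies and 6.35% outside them, so sequence outside these bodies held more in both. Sequence between members includes pseudogenes and other genes. Of all domain bases in the runs, 68.8% lay where no gene is annotated, which is 1364 of the 3122 kb. A further 22.5% lay in members, 5.13% in other Cyp genes and pseudogenes and 3.54% in other genes. Covered shares were 23.1% where no gene is annotated, 10.6% in other Cyp genes and pseudogenes and 29.1% in 55.6 kb of other genes.

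The Cyp2c run (chromosome 19, 39006940 to 40187286) held 32 domains, 27.1 per Mb against 7.82 per Mb on its chromosome. They covered 13.4% of the run, 4.96 times the chromosome's share. The 500 kb on either side had 1.02 and 1.98%, below the 2.69% of the chromosome. The 4 widest domains, of 24.6, 19.65, 19.05 and 15.45 kb, lay between the 5′ end of Cyp2c68 and Cyp2c37, a stretch that holds Cyp2c40 and Cyp2c69.

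The Cyp2j run (chromosome 4, 96042660 to 96664171) held 19 domains that covered 19.1%, 3.53 times the chromosome's share. Its domains were wide, with a median of 5.85 kb against 3.00 kb for the list. The 500 kb to its left had none, and the 500 kb to its right had 6.03%. Its widest domains, of 13.2 and 12.3 kb, lay on either side of Cyp2j11 and outside it.

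**Figure D3:**
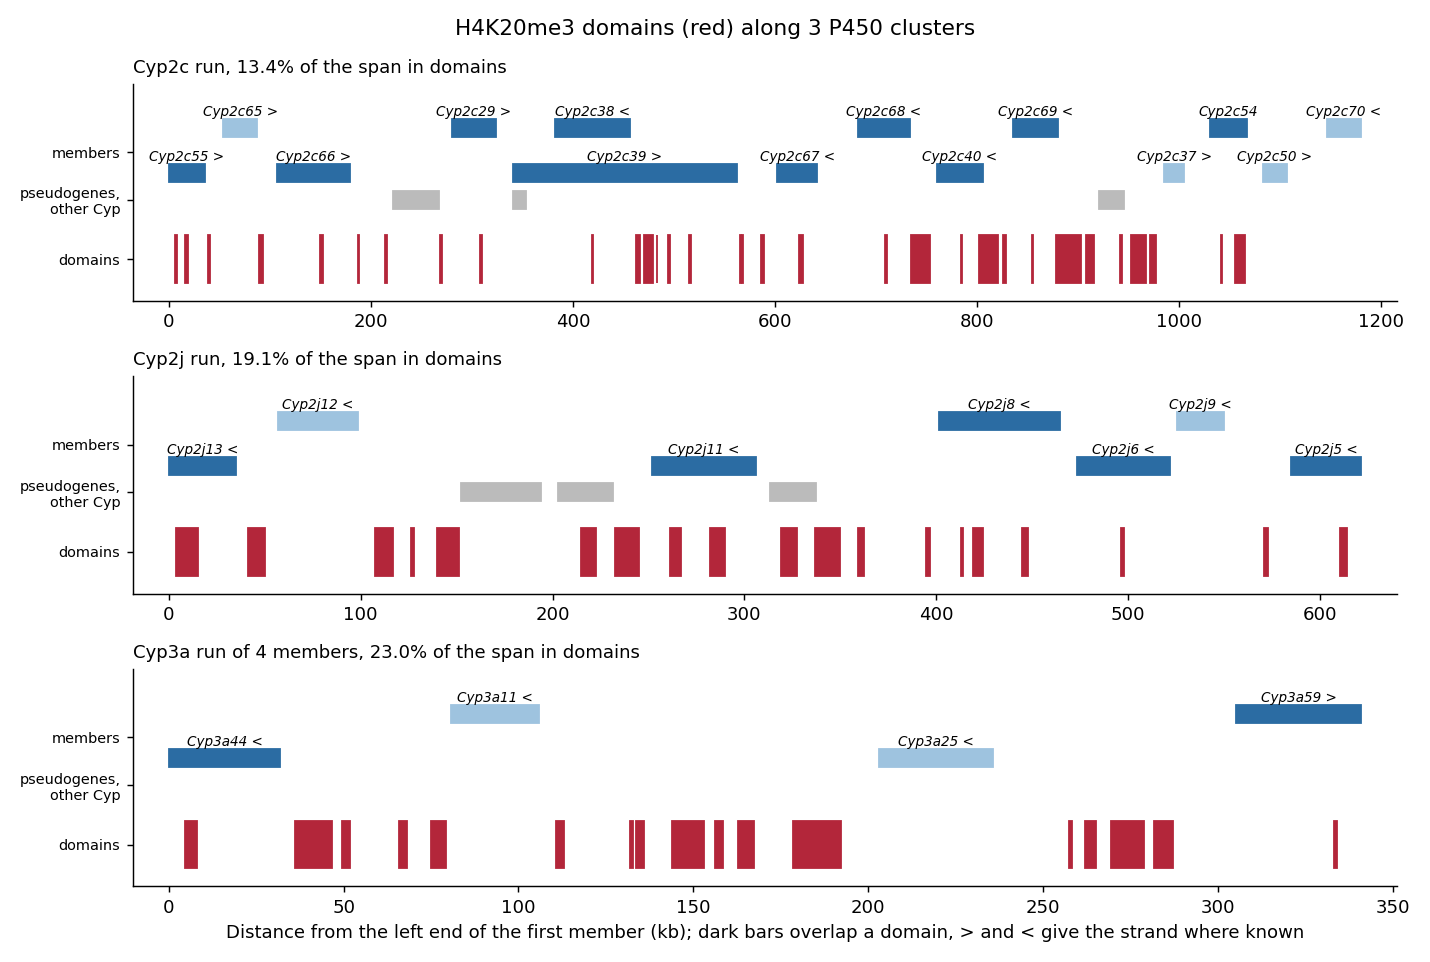
Maps of the Cyp2c run, the Cyp2j run and the Cyp3a run of 4 members, with domains in red, members in blue (dark where they overlap a domain) and other Cyp genes and pseudogenes in grey, against distance in kb. Domains cover 13.4, 19.1 and 23.0% of these runs, and in the Cyp3a run 15 of 17 lie between the members.

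Cyp3a genes formed a pair (Cyp3a57 and Cyp3a16) and a run of 4 (Cyp3a44, Cyp3a11, Cyp3a25 and Cyp3a59, chromosome 5, 145773983 to 146114978). The run of 4 was the most covered of the 8 runs, at 23.0%. Of its 17 domains only 2 met a member. Domains took 34.4% of the sequence between members and 3.47% of that inside members. The 500 kb to the left of the run of 4 had 20.8% in domains, and the 500 kb to its right 6.36%. The pair was 9.15% covered, with 8.52% in the 500 kb to its left and 24.5% to its right. The left flank of the run of 4 takes in the pair, and the right flank of the pair takes in part of the run.

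The Cyp2d run (chromosome 15, 82370527 to 82794452) held 15 domains in 424 kb, of which 14 lay between the members. Coverage was 12.4% between members and 0.381% inside, and the 500 kb to the left and right of the run had 3.06 and 0%. Domains began 12.6 kb or more from 7 of the 8 genes. In the Cyp4f run of 6 genes on chromosome 17, 5 of 6 domains lay between members, with 22.6% covered there and 0.690% inside. The 500 kb to its left and right had 5.13 and 6.93%. The second Cyp4f run, Cyp4f14 and Cyp4f13 in 44.1 kb, had no domain at all, while the 500 kb to its left and right had 8.94 and 7.32%. The Cyp4a run of 4 genes differed least, with 13.4% between members and 9.15% inside. It was 11.4% covered in all, below the 21.15% of the 500 kb to its left and above the 3.18% to its right.

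**Figure D4:**
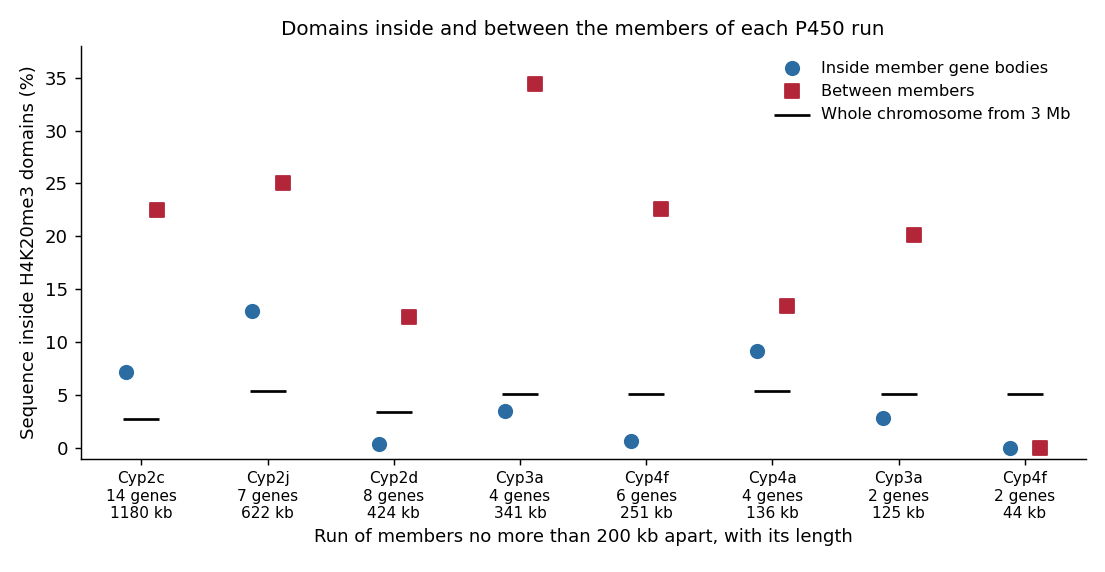
Percent of sequence inside H4K20me3 domains (vertical axis) within member gene bodies (circles), between members (squares) and over the whole chromosome from 3 Mb (lines) for each of the 8 runs. Squares lie above circles in 7 runs, and both are at 0 in the short Cyp4f run.

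Runs of mixed subfamilies on chromosome 7 also had more domain sequence between members than inside them. The run from Cyp2b23 to Cyp2t4 (26665227 to 27158564) held Cyp2a, Cyp2b, Cyp2f, Cyp2g and Cyp2t genes. It had 20 domains, the widest of 23.7 kb, which covered 27.6% of its 493 kb. Only 2 of its 8 members met one, with 32.8% of the sequence between members and 4.46% of that inside members covered. The run from Cyp2s1 to Cyp2a4 had 13 domains and 9.98% covered, and 1 of these domains met a member. The 6 genes of the first run without a domain (Cyp2a5, Cyp2a12, Cyp2a22, Cyp2b19, Cyp2g1 and Cyp2f2) were 4.19 to 9.12 kb from one. The 4 of the other run (Cyp2b10, Cyp2b13, Cyp2b9 and Cyp2s1) were 9.28 to 48.3 kb away.

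The 45 domains that met a member had a median width of 2.85 kb (quartiles 1.2 and 3.60 kb), against 3.00 kb (1.80 and 4.80 kb) for all 28210, and 5 were wider than 10 kb (11.1%, beside 7.21% of the list). Of 46 pairs of a domain and a gene, 37 had the domain wholly inside the gene, 5 at the 5′ end, 3 at the 3′ end and 1, in Cyp2d12, at an end of unknown direction. With each body of known strand divided into 3 equal parts, the first part held 27.1% of covered bases, the middle 42.8% and the last 30.1%. For all protein-coding genes these were 31.5, 36.0 and 32.4%.

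Cyp pseudogenes, most of which lie in or beside the clusters, had a larger share of their bases in domains than the members. Of 34 Cyp pseudogenes 13 met a domain (38.2%), beside 9.58% of all pseudogenes, which are much shorter (median 0.918 against 9.17 kb). Domains covered 14.3% of Cyp pseudogene bases and 8.40% of the bases of all pseudogenes. Among 11 Cyp2d pseudogenes, Cyp2d33-ps lay wholly inside a domain, Cyp2d38-ps had 13.3% covered and the other 9 had none.

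Positions along the bodies of paralogs were set side by side. A domain began 24.9 kb from the 5′ end in Cyp3a16, 23.7 kb in Cyp3a44 and 28.0 kb in Cyp3a59. In Cyp2c68 and Cyp2c69 a domain of 1.2 kb began 23.7 and 24.6 kb from the 5′ end, and in Cyp2c40 one of 0.750 kb began 20.5 kb from it. In Cyp2c67, of the same near-identical group, the domain began 14.6 kb from the 5′ end. Measured from the 5′ end, the Cyp3a59 domain did not overlap those of Cyp3a16 and Cyp3a44, nor the 0.750 kb domain of Cyp2c40 those of Cyp2c68 and Cyp2c69. In Cyp2j the positions were spread from 7.62 kb in Cyp2j5 to 50.8 kb in Cyp2j8. These genes were chosen after their positions were seen.

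**Figure D5:**
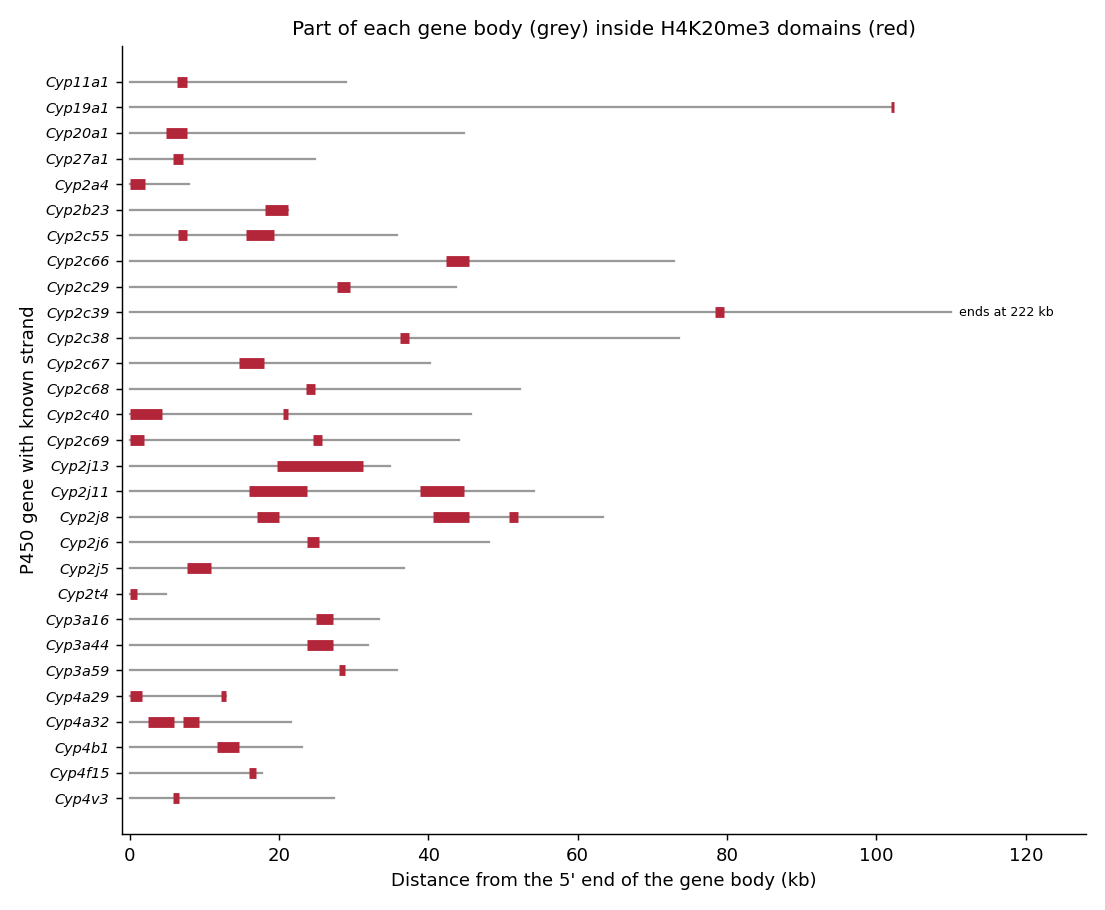
Domains (red) along the bodies (grey) of the 29 overlapping members with known strand, by distance in kb from the 5′ end. Domains reach the 5′ end in Cyp2a4, Cyp2c40, Cyp2c69, Cyp2t4 and Cyp4a29, and the 5 domains of Cyp2c39 farthest from its 5′ end are not drawn.

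Partners of P450 enzymes were described by lists of gene names, with no test, beside the 14.1% of all protein-coding genes that met a domain. No electron donor of 9 met a domain, including Por, the reductase that feeds microsomal P450s, and no haem synthesis gene of 9 did. With median lengths of 20.6 and 14.1 kb, these lists stand beside 9.90% of all genes of 20 to 30 kb and 6.18% of those of 10 to 20 kb, shares at which none or 1 of 9 would be met. Of 18 nuclear receptors and sensors 2 met a domain, Esr1 (4.38% covered) and Hnf4a (1.13%), while Ahr, Nr1i2 and Nr1i3, the sensors of foreign compounds, did not. This list had a median length of 50.2 kb. It stands beside 15.8% of all genes of 30 to 50 kb and 38.8% of those of 50 kb or more. Among conjugating and other detoxifying enzymes, many of them also clustered, the counts varied by list. Of 21 UDP-glucuronosyltransferases 9 met a domain, but 7 of these are Ugt1a genes whose bodies overlap and share the same domains. Of 21 sulfotransferases 5 did, led by Sult2a3 (40.3%), Sult2a2 (28.6%) and Sult2a4 (27.02%). Of 22 glutathione S-transferases 3 did (13.6%, near the 14.1% of all genes), with Gstp2 covered over 94.2% and Gstz1 over 27.3%. Their median length was 7.47 kb, and of all genes under 10 kb 3.20% met a domain. Among 26 flavin monooxygenases, epoxide hydrolases, aldehyde oxidases and carboxylesterases 7 met a domain, with Ces2h at 56.3% and Fmo1 at 31.6%. Median lengths were 26.6 kb for the UDP-glucuronosyltransferases, 28.5 kb for the sulfotransferases and 28.0 kb for this last list. By these medians the lists stand beside 9.90% of all genes of 20 to 30 kb, but some genes met were longer. The Ugt1a genes met were 54.0 to 165 kb long, and Sult2a3 and Sult2a4 were 55.5 and 79.9 kb. Of all genes of 50 kb or more, 38.8% met a domain. Of 4 P450 genes outside the naming rule, Tbxas1, the thromboxane synthase, met domains over 1.77% of its body, and Cyp51, Cyp2ab1 and Ptgis met none.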

How the data were processed

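H4K20me3 ChIP-seq with a Drosophila spike-in was made at 4 times with 3 replicates each, per the labels. The 1 deposited file holds other values than signal: start and end positions of domains that the authors called with RSEG, as its name states. The sources used here give no version, threshold or library for it, so pooling is unknown, as is depth. The submitters' processing notes name Bowtie2 2.3.4.1, SAMtools 1.1, deepTools and bedtools, and the builds mm10, dm6, mm9 and GRCm38, without their roles. All but 1 domain lie on a grid of 150 bases, which limits the precision of positions.

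Gene bodies and promoter windows came from RefSeq GRCm38.p6 (mm10), and strand from the windows (72 of 92 members). Exons and repeats were not used here. A single shared base counted as overlap, and overlapping bodies were counted once in shares of bases. Members within 200 kb of each other formed a run. The text names all members that met a domain, the clustered subfamilies, the nearest members without overlap, and examples of the partners that met one, of which 1 is not reported here. Members and lists were chosen with earlier results of these data known. Alternatives changed the domains, the overlap, the gene extent and the members. Windows were compared by local alignment (match 1, mismatch -1, gap opening -2, gap extension -0.5). The overlap functions were tested on simulated data. Python 3.11.15, numpy 2.4.6, pandas 2.3.3, Biopython 1.88 and matplotlib 3.10.9 were used.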

Additional observations from a re-analysis of the deposited data

How the results depend on the processing

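The list holds no score, sample or count, so a stricter caller threshold and leaving out a replicate could not be tried. No paired analysis was possible because the list names no replicate. When the narrower domains, those under the median width, were dropped, 18 members met a domain, 14 of the clustered subfamilies and 2 of the single-copy genes, and the covered shares were 3.79% (all members), 5.31% (clustered) and 0.875% (single-copy), with 12.1% of the runs. At 10% of the body the counts were 13, 9 and 2, beside 3.91% of all protein-coding genes. At 50% they were 0, as for the other subfamilies (0), beside 0.739% of all protein-coding genes. With domains closer than 5 kb joined, shares were 5.30% of member bodies, 7.26% of clustered ones and 16.8% of the runs. With 5 kb added to either side, 4 genes of the other subfamilies met a domain and 5.47% of member bodies was covered. With clusters defined by position, single genes had 1.42% covered. With pseudogenes, the share of bodies was 6.44%. With neighbours within 200 kb counted once, 8 of 12 units (8 runs and 4 lone genes) met a domain. A run counted as met if any of its members was, which raises the share by construction. No share of comparable units stands beside it. Chosen after seeing the data, leaving out Cyp2c39 gave 4.55% (all) and 6.21% (clustered), leaving out Cyp2c and Cyp2j gave 7 genes and 2.88%, and drawing runs with genes that have a letter after the number gave 16.0% of the runs. These alternatives count other genes or domains by construction. The counts with narrower domains dropped or flanks added have no share of all protein-coding genes beside them. They are therefore not compared with genes in general. The share of genes met was higher in clustered than in single-copy genes under the other settings, but at 50% of the body both were 0, and without Cyp2c and Cyp2j the order turned (24.1% against 28.6%). Depth limits are unknown.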

Other observations

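Individual pseudogenes differed from their coding paralogs in coverage. Cyp2j14-ps had 37.4% of its body in domains, above the 33.1% of Cyp2j13, and Cyp2j15-ps had 26.1%, while Cyp2j7, annotated as a pseudogene, had none over 41.6 kb. Cyp3a58-ps had 36.7%, above the 10.8% of Cyp3a44, the most covered Cyp3a member. Cyp4a30-ps had 33.4% and Cyp4b1-ps1 87.0%. These pseudogenes were chosen after their values were seen, and differences between genes and pseudogenes were not tested.

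Protein-coding paralogs with a letter after the number fall outside the naming rule. All 5, namely Cyp4a12a, Cyp4a12b, Cyp4a30b, Cyp3a41a and Cyp3a41b, met a domain, beside 14.1% of all protein-coding genes. Their bodies were 18.9 to 33.8 kb long. Of all genes, 6.18% of those of 10 to 20 kb, 9.90% of 20 to 30 kb and 15.8% of 30 to 50 kb met a domain. Cyp4a12a and Cyp4a12b had 15.5 and 16.4% covered, and Cyp3a41a and Cyp3a41b had 4.22 and 5.13%. With them the Cyp4a genes formed 1 run of 8 genes with 20 domains, and the Cyp3a genes formed 1 run of 8 genes with 30 domains and 20.05% covered.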
